A study of Mus musculus with 32 samples.

Results

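The comparison described here sets the brains of vehicle-treated mice with 2 copies of human APOE4 (E4/4 PBS) against those of vehicle-treated mice with 2 copies of human APOE3 (E3/3 PBS). It compares 16 of the series' 32 libraries, each from 1 mouse. These were 8 E4/4 PBS mice (4 females and 4 males) and 8 E3/3 PBS mice (4 females and 4 males). They were chosen by genotype, treatment and sex in the sample labels. All mice carried only human APOE at both alleles, were about 10.5 months old at the start, received PBS daily for 12 weeks and were about 13.2 months old at the end. The other 16 mice, 8 E4/4 D4F and 8 E3/3 D4F, received the peptide D4F, a mimetic of apolipoprotein A-I built from D amino acids. They served here for a repeat of the genotype comparison in other animals. Their libraries also entered the fit behind the reported p-values, in which all 32 libraries share 1 estimate of the spread. RNA was taken from homogenised brain and made into stranded messenger RNA libraries. The sources used here do not give the mouse line, the part of the brain or the dissection.

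APOE is the main apolipoprotein of brain lipoproteins. Astrocytes make most of it, the transporters ABCA1 and ABCG1 load it with cholesterol and phospholipid, and neurons and glia take up the particles through receptors of the LDL receptor family. The liver X receptors (LXR), which sense oxysterols, switch on Abca1 and related genes. APOE4 differs from APOE3 by an amino acid exchange, carries less lipid and is the main common genetic risk factor for late-onset Alzheimer's disease.

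Reads were counted on mouse genes only, so human APOE itself has no value here. Mouse Apoe, which the human gene replaces, had 42 to 141 counts per library in E4/4 PBS mice and 48 to 92 in E3/3 PBS mice. Xist was at 495 to 1010 CPM in the female libraries and at most at 4.21 CPM in the male ones (CPM, counts scaled to 1 M per library; M stands for mega). Total counts were 19.6 to 45.1 M in E4/4 PBS libraries and 19.3 to 35.8 M in E3/3 PBS libraries. Of these, 1 of 8 E4/4 PBS against 6 of 8 E3/3 PBS libraries lay under 26 M. The slope of a library's log2 levels on gene GC content, per 10 percentage points and relative to the mean library, was −0.115 to −0.0212 (median −0.0789) in E4/4 PBS and −0.0634 to 0.230 (median 0.0826) in E3/3 PBS (exact permutation test, adjusted p = 0.0149 over 24 measures, and 0.0522 without E4/4 PBS female 3). E4/4 libraries carried the library numbers 18644 to 18789 and E3/3 libraries 19002 to 19074, so that genotype and whatever these numbers stand for cannot be told apart. On the first principal component, which held 32.6% of the variance, the library of E4/4 PBS female 1, the E4/4 library under 26 M counts, lay at −17.1 among the E3/3 libraries, while the other E4/4 libraries lay at 4.46 to 28.1. The library of E3/3 PBS female 1 lay at 9.98, inside that E4/4 range, and the other E3/3 libraries at −25.0 to −4.70. E3/3 PBS female 1 also stood apart on the second component, at −32.2.

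**Figure D1:**
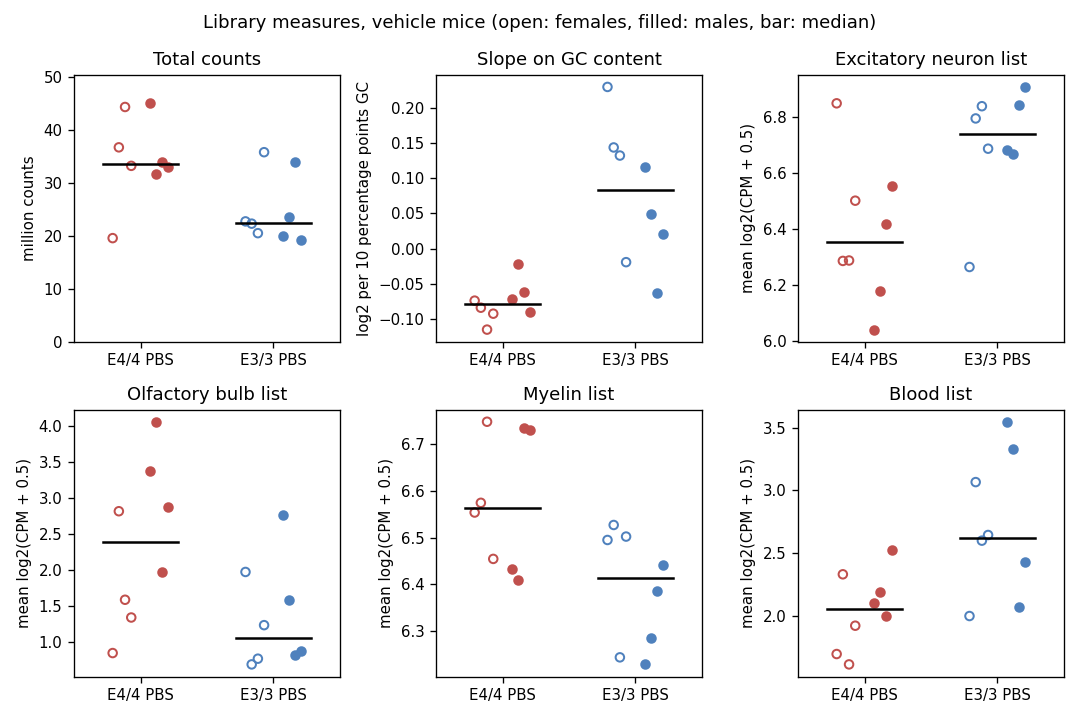
Total counts, the GC slope and the mean log2 level of 4 marker lists in each library (open points are females, filled points males; the bar is the group median), with E4/4 PBS mice left of E3/3 PBS mice. The E4/4 libraries hold more counts at the median (33.6 against 22.5 M) and have the lower GC slopes.

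Of 20298 genes tested, 4137 (20.4%) differed between E4/4 PBS and E3/3 PBS mice at an adjusted p below 0.05 in edgeR's quasi-likelihood test, 2007 higher (9.89%) and 2130 lower (10.5%) in E4/4 PBS. Most differences were small. The median size among called genes was 0.32 on the log2 scale, 554 changed by over 1.5-fold and 166 by over 2-fold. The number of calls depended on how depth and GC content were handled: 1286 genes (6.34%) were called with depth class (under or over 26 M counts) as a term, and 2682 (13.2%) after trends on GC content and gene length were removed (the GC and length correction). Both corrections at the same time left 477 (2.35%). These fits, like the reported one, used all 32 libraries. A fit of the 16 vehicle libraries alone called 3191 of 19465 genes tested. Within the 16 vehicle libraries alone, where depth class and genotype largely coincide, depth class as a term left 0 edgeR calls, with 1894 genes at an unadjusted p below 0.05. All but 2 of the 4120 calls with a value there kept their sign, at a median of 0.62 of their size. Without E4/4 PBS female 1 the count was 4871 and without E3/3 PBS female 1 it was 4207. A total of 960 genes (4.73%), 436 higher (2.15%) and 524 lower (2.58%), were called in the reported fit, with DESeq2, with depth class, after the GC and length correction, with the 16 vehicle libraries alone and without any 1 of them. These are said below to have held throughout. The term does not cover the fit with both corrections, the libraries above 26 M counts alone (42 calls) or marker levels of brain regions as terms (2162 calls). Nor does it cover depth class within the vehicle libraries alone, where 0 genes were called. The CPM ranges of the groups did not overlap at all for 207 genes (1.02%), of which 66 were higher (0.325%) and 141 lower (0.695%) in E4/4 PBS. Within females 2097 genes (10.3%) were called and within males 806 (3.97%), 433 of them in both. The female minus male difference itself passed for 0 genes with edgeR, with 1090 at an unadjusted p below 0.05, and for 39 without E3/3 PBS female 4. In this text a log2 value is the difference between E4/4 PBS and E3/3 PBS mice, averaged over the sexes, and is positive where E4/4 PBS was higher.

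Abca1, the transporter that hands cholesterol and phospholipid to lipid-poor apolipoproteins, had the largest difference among the 14 lipid exporters of its family and among the 14 LXR target genes. It was at 31.8 to 45.8 CPM (median 33.9) in E4/4 PBS mice, against 18.7 to 28.9 CPM (median 21.6) in E3/3 PBS mice, so that the groups did not overlap (log2 0.66, SE 0.0783, edgeR adjusted p = 1.72e-05). The means were 35.6 ± 4.78 CPM in E4/4 PBS mice and 22.5 ± 3.14 CPM in E3/3 PBS mice (SD, n = 8 each). E4/4 PBS female 1, the low-depth library, was at 33.3 CPM. The difference was 0.57 in females and 0.74 in males on the log2 scale, and it held throughout (0.66 with the trends on GC and length removed and 0.62 with depth class added to that). In the libraries above 26 M counts alone it was 0.45 (adjusted p = 0.0998). The gene lies on chromosome 4, 53030787 to 53159895 of GRCm38, on the minus strand. Syn1, a synaptic vesicle phosphoprotein found in nearly all neurons, moved the other way, at 408 to 627 CPM (median 498) in E4/4 PBS mice, against 573 to 990.04 CPM (median 799) in E3/3 PBS mice (log2 −0.68, SE 0.11, edgeR adjusted p = 0.000139). The promoters of both genes are shown because textbook elements for lipid sensing and for neuronal expression are known for them; each line gives the 250 bases before the transcription start in RefSeq (GRCm38.p6), 5′ to 3′ on the gene's strand, with the match to the searched pattern in capitals.
Abca1, chr4:53159896-53160145, minus strand: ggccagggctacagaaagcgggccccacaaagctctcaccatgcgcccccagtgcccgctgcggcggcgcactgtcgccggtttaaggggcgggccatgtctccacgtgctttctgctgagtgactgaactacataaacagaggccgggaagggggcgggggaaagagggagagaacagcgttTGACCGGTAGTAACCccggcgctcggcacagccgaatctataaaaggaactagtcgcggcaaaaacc
Syn1, chrX:20920919-20921168, minus strand: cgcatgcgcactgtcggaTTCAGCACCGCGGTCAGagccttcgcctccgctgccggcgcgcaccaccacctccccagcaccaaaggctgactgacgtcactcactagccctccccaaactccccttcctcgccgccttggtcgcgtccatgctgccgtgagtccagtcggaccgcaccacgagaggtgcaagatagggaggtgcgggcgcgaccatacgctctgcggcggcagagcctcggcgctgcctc
In Abca1 the capitals, 67 to 53 bases upstream, match on the opposite strand a loose LXR pattern, a pair of GGTNA units with any 5 bases between them. This pattern overlaps the strict one below, and 204 of 32851 promoters of the same length hold it on either strand (0.621%). The strict pattern, a pair of AGGTNA units with any 4 bases between them, held by 30 promoters (0.0913%), had no match there, and the loose one was chosen after that was seen. In Syn1 the capitals, 232 to 216 bases upstream, match the left part of the neuronal repressor element. The pattern searched was TTCAGCACC, any 2 bases, GG, any 2 bases and AG, which 6 promoters hold on either strand (0.0183%).

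In the reported fit, the lists of LXR targets and of lipid exporters did not move with Abca1 as a group. Of 14 LXR target genes, Abca1 included, 2 rose and 1 fell, with a median log2 of 0.02 against 0.017 over all genes tested. After the GC and length correction that median was 0.12 against 0.021, with 1 higher and 0 lower (6.92% and 6.30% over all genes tested). Of 14 lipid exporters, Abca1 included, 3 rose and 2 fell (median −0.035, and −0.0022 after that correction). Abcg1, the partner transporter that loads larger particles, was at 70.2 to 88.03 CPM (median 75.6) in E4/4 PBS mice, against 68.5 to 81.02 CPM (median 74.7) in E3/3 PBS mice, so that the groups overlapped (log2 0.02, SE 0.0591, edgeR adjusted p = 0.82). Srebf1, the regulator of fatty acid synthesis, did not pass the test either, at 49.4 to 68.4 CPM in E4/4 PBS and 44.9 to 67.3 CPM in E3/3 PBS mice (log2 0.02, SE 0.0812, edgeR adjusted p = 0.92). Smpdl3a, a phosphodiesterase, rose (0.20, adjusted p = 0.0109) and Fasn, the fatty acid synthase, fell (−0.26, adjusted p = 0.00593), but neither held after the GC and length correction (adjusted p = 0.0958 and 0.269). Among 16 nuclear receptors and their partners 4 fell and 0 rose. Ppard, a fatty acid sensor, was at 17.8 to 24.8 CPM (median 20.1) in E4/4 PBS mice, against 25.3 to 34.1 CPM (median 30.2) in E3/3 PBS mice, without overlap, and held throughout (log2 −0.52, SE 0.0841, edgeR adjusted p = 0.000139). Nr1h2, which encodes LXR beta, (−0.18, adjusted p = 0.0107) and its dimer partner Rxra (−0.29, adjusted p = 0.00425) fell less, and their calls ended after the GC and length correction (adjusted p = 0.993 and 0.262).

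**Figure D2:**
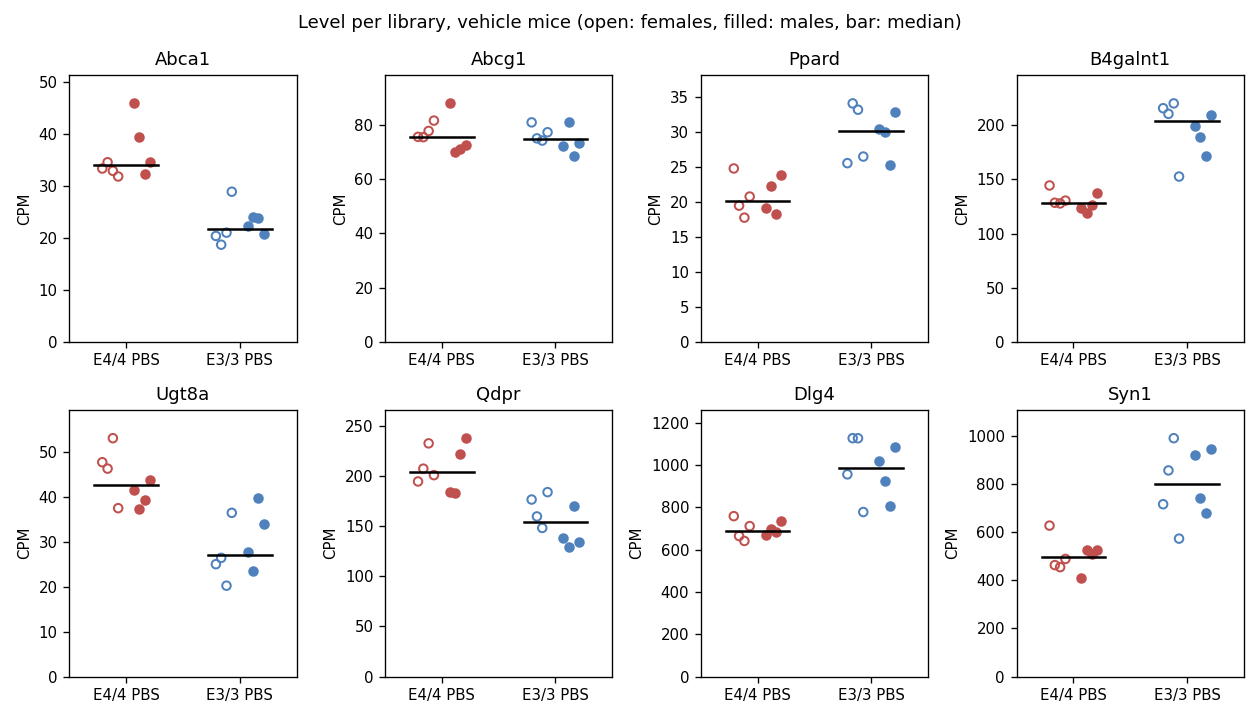
CPM in each library for 8 genes of lipids, oligodendrocytes and synapses (points; the bar is the group median; E4/4 PBS left of E3/3 PBS; open points are females, filled points males; each axis starts at 0). Abca1 and Ppard separate the groups completely, in opposite directions, while the ranges of Abcg1 overlap.

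Of the 19 LDL receptor family genes, 2 rose and 4 fell, and 0 held throughout. The lower ones were 2 without E4/4 PBS female 2 or female 3 or E3/3 PBS female 2. Vldlr, the very low density lipoprotein receptor and a Reelin receptor, rose (0.35, adjusted p = 0.0095), as did Lrp1b (0.35, adjusted p = 0.00642). Lrp3 (−0.34, adjusted p = 0.000199) and Lrp5, a Wnt co-receptor, (−0.46, adjusted p = 0.00582) fell. Lrp1, a major uptake receptor for APOE particles, was at 389 to 508 CPM (median 410.1) in E4/4 PBS mice, against 435 to 542 CPM (median 488) in E3/3 PBS mice, with overlapping ranges (log2 −0.19, SE 0.0615, edgeR adjusted p = 0.0238), and its call ended after the GC and length correction (adjusted p = 0.699) and was kept in 8 of the 16 fits that left out 1 vehicle library. Lrp8 (0.14, adjusted p = 0.29), the other Reelin receptor, and Sorl1 (−0.30, adjusted p = 0.0941), a sorting receptor for the amyloid precursor, did not pass the test. Of 13 measured apolipoproteins and remodelling factors, Apoo and Apool rose, both proteins of the mitochondrial inner membrane, and Hdlbp fell (−0.25, adjusted p = 0.00976). In this list 0 genes held throughout, and 0 were called with depth class as a term. When 1 vehicle library was left out, 0 to 3 were higher and 1 to 2 lower. Clu, the other abundant brain apolipoprotein, did not pass the test (−0.13, adjusted p = 0.19), nor did Apod (0.25, adjusted p = 0.134).

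Most genes that make sterols did not pass the test, with 5 of 28 lower (8 without E4/4 PBS female 1) and 2 higher in E4/4 PBS mice. The kinases Mvk and Pmvk of the mevalonate pathway fell and held throughout. Mvk was at 13.3 to 16.7 CPM (median 15.6) in E4/4 PBS mice, against 17.6 to 23.8 CPM (median 19.1) in E3/3 PBS mice, without overlap (log2 −0.35, SE 0.0691, edgeR adjusted p = 0.00081). Pmvk was at 36.2 to 44.9 CPM (median 38.5) in E4/4 PBS mice, against 43.2 to 61.3 CPM (median 52.4) in E3/3 PBS mice (log2 −0.41, SE 0.0811, edgeR adjusted p = 0.000741). Cyp46a1, which turns brain cholesterol into the exported 24-hydroxycholesterol, fell (−0.34, adjusted p = 0.00319), and Soat1, which esterifies cholesterol for storage, rose (0.31, adjusted p = 0.00574). The call of neither held with depth class as a term (adjusted p = 0.122 and 0.0824). Srebf2, the regulator of the genes that make sterols, did not pass the test (−0.17, adjusted p = 0.0634).

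Lists of membrane lipid genes had calls in both directions, with the ganglioside list mostly lower. The shares over all genes tested were 9.89% higher and 10.5% lower. After the GC and length correction these shares were 6.92% and 6.30%. B4galnt1, the branch-point enzyme for complex gangliosides of neurons, fell to 119 to 144 CPM (median 128) in E4/4 PBS mice, against 153 to 220.3 CPM (median 204) in E3/3 PBS mice, without overlap (log2 −0.60, SE 0.0682, edgeR adjusted p = 1.5e-05). It held throughout and was 1 of 6 ganglioside synthesis genes of 13 that fell, against 1 that rose. After the GC and length correction 1 ganglioside gene was lower and 0 higher. The others included the sialyltransferases St3gal2 (−0.30, adjusted p = 0.00107) and St3gal3 (−0.34, adjusted p = 0.0012), which did not hold after the GC and length correction (adjusted p = 0.0517 and 0.0914). Of 27 ceramide and sulfatide genes 3 rose and 4 fell, with 5 higher and 1 lower after that correction. Without E3/3 PBS female 1 or female 4, 6 of them were higher, and without E4/4 PBS female 1 or E3/3 PBS male 4, 5 were. Ugt8a, which makes the galactosylceramide of myelin, was at 37.3 to 53.1 CPM (median 42.7) in E4/4 PBS mice, against 20.3 to 39.8 CPM (median 27.1) in E3/3 PBS mice (log2 0.57, SE 0.102, edgeR adjusted p = 0.000342). Cers1, the ceramide synthase of neurons, was at 24.7 to 34.2 CPM (median 27.6) in E4/4 PBS mice, against 32.5 to 53.5 CPM (median 44.9) in E3/3 PBS mice (log2 −0.62, SE 0.107, edgeR adjusted p = 0.000246). Both held throughout, with ranges that overlapped. Among 26 phospholipid genes 4 rose and 5 fell, with 5 higher and 2 lower after the correction. The higher ones were 8 without E3/3 PBS female 4 and 2 without E4/4 PBS male 2 or E3/3 PBS male 2. Chpt1, the last enzyme of phosphatidylcholine synthesis, rose (0.47, adjusted p = 0.000339), and Pisd, which makes phosphatidylethanolamine in mitochondria, (−0.33, adjusted p = 0.00021) and Pld3, a lysosomal nuclease, (−0.39, adjusted p = 0.000435) fell, all 3 throughout. Of 32 fatty acid genes 5 rose and 4 fell, and 1 was higher and 5 lower after the correction. Fabp3, the neuronal fatty acid binding protein, fell (−0.40, adjusted p = 0.000508). Fabp7, that of glial progenitors, was at 12.5 to 114 CPM (median 34.5) in E4/4 PBS mice, against 9.29 to 27.98 CPM (median 13.7) in E3/3 PBS mice, a wide spread in E4/4 PBS mice that covered most of the E3/3 PBS range (log2 1.38, SE 0.316, edgeR adjusted p = 0.00332).

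Many genes of the synapse fell. Of 32 genes of vesicles and presynaptic release, 17 fell and 0 rose (median log2 −0.22), of which 7 held throughout, and of 32 genes of the postsynaptic density, 18 fell and 0 rose (median −0.29), of which 9 held. Without E4/4 PBS female 1, 19 genes of each list were lower. Syp, a vesicle membrane protein, was at 1112 to 1447 CPM (median 1293) in E4/4 PBS mice, against 1423 to 2015 CPM (median 1821) in E3/3 PBS mice (log2 −0.46, SE 0.0695, edgeR adjusted p = 6.33e-05). Vamp2, the vesicle SNARE, was at 974 to 1219.6 CPM (median 1053) in E4/4 PBS mice, against 1139.6 to 1638 CPM (median 1485) in E3/3 PBS mice (log2 −0.43, SE 0.0712, edgeR adjusted p = 0.000143). For both genes most E4/4 PBS libraries lay below the lowest E3/3 PBS ones, with some overlap. Dlg4, which encodes the postsynaptic scaffold PSD-95, was at 641 to 759 CPM (median 689) in E4/4 PBS mice, against 778 to 1128 CPM (median 987) in E3/3 PBS mice, without overlap (log2 −0.49, SE 0.073, edgeR adjusted p = 5.97e-05). Dlgap3, its binding partner in the scaffold, was at 187 to 265 CPM (median 206) in E4/4 PBS mice, against 284 to 424 CPM (median 355) in E3/3 PBS mice, also without overlap (log2 −0.70, SE 0.0863, edgeR adjusted p = 1.72e-05). Shank1, the outer scaffold, had the largest fall of the list, at 289 to 498 CPM (median 335) in E4/4 PBS mice, against 441 to 862 CPM (median 667) in E3/3 PBS mice (log2 −0.87, SE 0.142, edgeR adjusted p = 0.000176). Shank3 was lower in every E4/4 PBS library than in any E3/3 PBS library (log2 −0.41, SE 0.0722, edgeR adjusted p = 0.000277). Among 36 glutamate and GABA receptor subunits 7 rose and 6 fell (3 without E4/4 PBS female 2 or E3/3 PBS female 2). Grin1, the obligate NMDA receptor subunit, fell (−0.50, adjusted p = 0.000112) throughout.

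**Figure D3:**
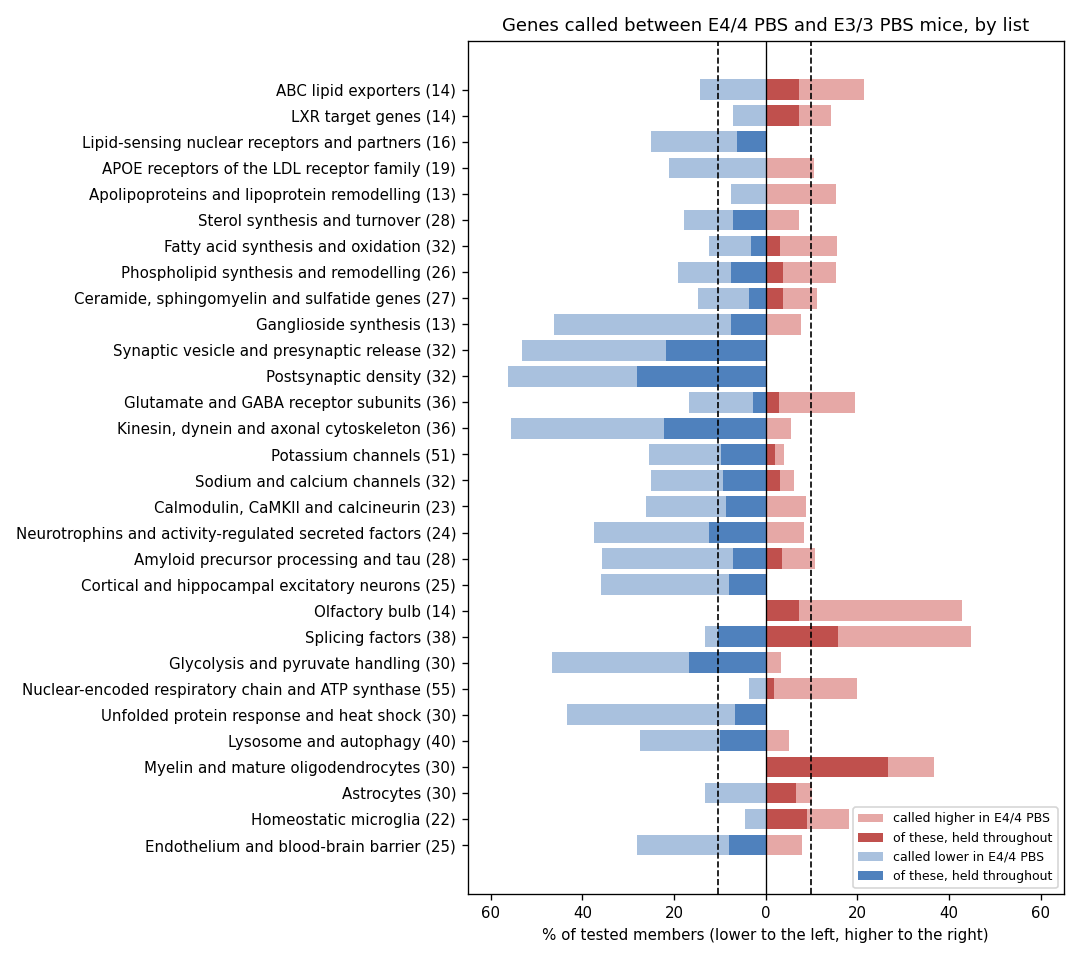
Percentage of tested members called higher (right) and lower (left) in E4/4 PBS mice for 30 of the lists, with dashed lines at the share over all genes tested (9.89% higher, 10.5% lower) and dark bars for members that held throughout. Cytoskeletal, postsynaptic and presynaptic lists reach furthest to the left, the splicing list and the olfactory bulb list furthest to the right.

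The neuronal cytoskeleton and transport genes fell about as often, 20 of 36, with 2 higher (median −0.24). Klc2, a light chain of the motor kinesin-1, was at 171 to 287 CPM (median 192) in E4/4 PBS mice, against 253 to 347 CPM (median 276) in E3/3 PBS mice (log2 −0.54, SE 0.0962, edgeR adjusted p = 0.000299). Map1a, a microtubule-binding protein of dendrites, was at 873 to 1393 CPM (median 938) in E4/4 PBS mice, against 1135 to 1769.6 CPM (median 1393) in E3/3 PBS mice (log2 −0.54, SE 0.103, edgeR adjusted p = 0.000568). Klc1 (−0.35, adjusted p = 0.000111) and the dynactin subunit Dctn1 (−0.35, adjusted p = 0.000235) fell too, and all 4 held throughout. The kinesin heavy chain Kif5b was among the 2 that rose (0.28, adjusted p = 0.0398), called in 7 of the 16 fits that left out 1 vehicle library. Of 51 potassium channel genes 13 fell and 2 rose, with Kcnc4 at 41.4 to 59.2 CPM (median 51.2) in E4/4 PBS mice, against 61.3 to 90.3 CPM (median 67.8) in E3/3 PBS mice, without overlap (log2 −0.51, SE 0.0886, edgeR adjusted p = 0.00026), and the BK channel subunit Kcnmb4 lower as well (−0.66, adjusted p = 0.000628). Of 32 sodium and calcium channel genes 8 fell and 2 rose. The calcium channel subunits Cacnb1 (−0.41, adjusted p = 3.3e-05) and Cacng3 (−0.52, adjusted p = 4.52e-05) fell and Scn3a, a sodium channel high in development, rose (0.55, adjusted p = 0.000464), all throughout. Calm3, 1 of the 3 calmodulin genes, was at 899.9 to 1324 CPM (median 1007) in E4/4 PBS mice, against 1304 to 1827 CPM (median 1617) in E3/3 PBS mice (log2 −0.62, SE 0.0827, edgeR adjusted p = 3.1e-05). Camk2a, the kinase that calmodulin activates at excitatory synapses, fell (−0.55, adjusted p = 0.00186) throughout. Neurogranin (Nrgn), which holds calmodulin at rest, fell (−0.88, adjusted p = 0.00646) with a call that ended with depth class as a term (adjusted p = 0.0721).

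Of 24 secreted neuronal factors 9 fell and 2 rose. Vgf, a neuropeptide precursor, was at 115 to 184 CPM (median 130.0) in E4/4 PBS mice, against 173 to 219 CPM (median 190.2) in E3/3 PBS mice (log2 −0.49, SE 0.0669, edgeR adjusted p = 3.73e-05). Chgb, a dense-core granule protein, was at 371 to 576 CPM (median 419) in E4/4 PBS mice, against 475 to 789 CPM (median 667) in E3/3 PBS mice (log2 −0.65, SE 0.0982, edgeR adjusted p = 6.33e-05). Nptxr, the receptor of neuronal pentraxins, was at 541 to 818 CPM (median 689.99) in E4/4 PBS mice, against 791 to 1276 CPM (median 1023) in E3/3 PBS mice (log2 −0.59, SE 0.0998, edgeR adjusted p = 0.000186). All 3 held throughout, with ranges that overlapped. Among 24 immediate early genes 2 fell and 0 rose, Jund (−0.43, adjusted p = 0.0131) and Klf4 (−0.62, adjusted p = 0.0195), neither of which held throughout; 5 were lower without E4/4 PBS female 1, male 2 or male 4. In the circadian clock, Clock rose (0.34, adjusted p = 0.000991) and Nr1d1, a repressor in the same loop, fell (−0.45, adjusted p = 0.000741), both throughout, and 15 of 18 genes did not pass. Of 28 genes of amyloid precursor processing and tau, 3 rose and 10 fell. Gsk3a, a tau kinase, was at 161 to 198 CPM (median 186) in E4/4 PBS mice, against 206 to 299.8 CPM (median 269) in E3/3 PBS mice, without overlap (log2 −0.50, SE 0.0698, edgeR adjusted p = 3.98e-05). Aph1b, a gamma-secretase subunit, rose (0.34, adjusted p = 0.00254) throughout. The precursor App itself (−0.19, adjusted p = 0.0648) and tau (Mapt) (−0.16, adjusted p = 0.0689) did not pass the test.

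Markers of brain regions moved as well. In bulk tissue, fewer cells of a type and less RNA per cell cannot be told apart. Of 25 markers of cortical and hippocampal excitatory neurons 9 fell and 0 rose (median −0.41), a count that was 13 without E4/4 PBS female 1. It was 5 without E4/4 PBS female 2, female 3, male 1 or male 2, or E3/3 PBS female 3, male 1 or male 4. Slc17a7, their vesicular glutamate transporter, was at 716 to 1372 CPM (median 969.99) in E4/4 PBS mice, against 1163 to 1802 CPM (median 1505) in E3/3 PBS mice, with overlap (log2 −0.59, SE 0.143, edgeR adjusted p = 0.00434), and held throughout, while the transcription factors Neurod2 (−0.68, adjusted p = 0.00869) and Emx1 (−0.78, adjusted p = 0.0119) did not (after the GC and length correction, adjusted p = 0.0566 and 0.0922). Of 14 olfactory bulb markers 6 rose (12 without E3/3 PBS male 1) and 0 fell (median 1.49), and only Kctd12, a subunit of GABA-B receptors, held throughout, at 60.98 to 104 CPM (median 72.6) in E4/4 PBS mice, against 35.1 to 60.3 CPM (median 48.3) in E3/3 PBS mice (log2 0.63, SE 0.1, edgeR adjusted p = 0.000118). Of 18 measured hypothalamic markers 3 rose, Avp, Gal and Trh, and 0 held. Avp was low, at 0 to 4.44 CPM in E4/4 PBS mice, against 0 to 0.479 CPM in E3/3 PBS mice. Its highest values were 3.57 CPM in E4/4 PBS female 3 and 4.44 CPM in E4/4 PBS male 3, with the other E4/4 PBS libraries at most at 1.23 CPM. Gad1, the GABA-making enzyme of inhibitory neurons, was at 369 to 872 CPM (median 498) in E4/4 PBS mice, against 298 to 416 CPM (median 363) in E3/3 PBS mice (log2 0.61, SE 0.114, edgeR adjusted p = 0.000543) and held, 1 of 4 interneuron genes of 24 that rose (7 without E4/4 PBS female 1) against 2 that fell. The 20 striatal markers had a median of 0.35 with 0 called.

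The summed level of the olfactory bulb list was 78.3 to 459 CPM in E4/4 PBS mice and 52.1 to 176 CPM in E3/3 PBS mice. That of the excitatory neuron list was 4516 to 7666 CPM in E4/4 PBS and 5479 to 8920.4 CPM in E3/3 PBS mice. The mean log2 levels of these lists differed with an adjusted p of 0.11 and 0.0798 by exact permutation over 24 measures. Without E4/4 PBS female 1 these were 0.0468 and 0.0274, and the second was 0.0224 without E3/3 PBS female 1. With the olfactory bulb, striatal and choroid plexus levels as terms, added after the data were seen, 2162 genes (10.7%) stayed past the threshold, and the background was 5.12% higher and 5.53% lower. The presynaptic list then had 8 lower and 0 higher genes (median −0.096), and the postsynaptic list 12 lower and 1 higher (median −0.17). The excitatory neuron list had 1 lower and 1 higher (median −0.059). The potassium channel list had 7 lower and 2 higher (median 0.00099). The list of calmodulin, CaMKII and calcineurin had 3 lower and 1 higher (median 0.014). The interneuron list had 2 lower and 2 higher (median −0.00054), and the hypothalamic list 0 lower and 0 higher (median −0.056). The median of the olfactory bulb list, itself used as a term, was 0.10. The part of tissue make-up in the synaptic differences beyond these terms was not tested.

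Splicing factors rose more often than they fell. Of 38 splicing factors 17 rose and 5 fell (median 0.13), with 6 and 4 that held throughout. Srsf7, a serine and arginine rich splicing factor, was at 115 to 149 CPM (median 131) in E4/4 PBS mice, against 70.8 to 114 CPM (median 88.5) in E3/3 PBS mice, without overlap (log2 0.54, SE 0.0776, edgeR adjusted p = 4.52e-05). Rbm39 rose too (0.35, adjusted p = 0.000229), whereas the neuronal splicing regulators Nova2 (−0.46, adjusted p = 3.78e-05) and Rbfox3 (−0.47, adjusted p = 0.000461) fell. Of 36 RNA helicases 7 rose and 7 fell. Dhx36, which unwinds G-quadruplexes, was at 73.4 to 86.9 CPM (median 82.3) in E4/4 PBS mice, against 52.5 to 75.6 CPM (median 58.3) in E3/3 PBS mice (log2 0.43, SE 0.0616, edgeR adjusted p = 4.67e-05). Ddx24 (−0.31, adjusted p = 0.000118) and Ddx41 (−0.34, adjusted p = 0.000233) fell. The median GC content was 43.4% for genes that rose, 55.2% for genes that fell and 49.4% over all genes tested. After the GC and length correction the splicing list had 8 higher and 9 lower (6.92% and 6.30% over all genes tested) and a median of 0.01.

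Of 30 glycolytic genes 14 fell and 1 rose (median −0.15). Hk1, the hexokinase of neurons, was at 283 to 404 CPM (median 304) in E4/4 PBS mice, against 377 to 559 CPM (median 448) in E3/3 PBS mice (log2 −0.56, SE 0.0808, edgeR adjusted p = 4.67e-05). Pdk2, which holds back pyruvate dehydrogenase, was at 77.98 to 101 CPM (median 88.9) in E4/4 PBS mice, against 101 to 137 CPM (median 125) in E3/3 PBS mice, without overlap (log2 −0.42, SE 0.0624, edgeR adjusted p = 6.33e-05). The glucose transporter Slc2a1 fell (−0.30, adjusted p = 0.00263) and all 3 held throughout. Gapdh also fell (−0.45, adjusted p = 0.000303), but its many pseudogenes make its value uncertain. Of 55 nuclear-encoded genes of the respiratory chain 11 rose and 2 fell (6 without E3/3 PBS female 4), with a list median of 0.0033 against 0.017 over all genes tested. With region levels as terms 1 was higher and 2 lower. Atp5g3, a subunit of the ATP synthase ring, was at 168 to 215 CPM (median 199.8) in E4/4 PBS mice, against 124 to 173 CPM (median 138) in E3/3 PBS mice and alone held throughout (log2 0.46, SE 0.0922, edgeR adjusted p = 0.000889). Of 38 mitochondrial ribosomal proteins 6 fell (3 without E4/4 PBS male 1) and 0 rose, with Mrps12 (−0.44, adjusted p = 0.000449) the member that held.

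Genes of protein folding and of lysosomes fell more often than they rose. In the list for heat shock and the unfolded protein response 13 of 30 genes fell (8 without E3/3 PBS female 2) and 0 rose (median −0.18). The chaperone Calr of the endoplasmic reticulum was at 325 to 386 CPM (median 354) in E4/4 PBS mice, against 351 to 572 CPM (median 484) in E3/3 PBS mice (log2 −0.40, SE 0.072, edgeR adjusted p = 0.000359). Hsp90ab1 was at 1178 to 1435 CPM (median 1242) in E4/4 PBS mice, against 1297 to 1736 CPM (median 1574) in E3/3 PBS mice (log2 −0.30, SE 0.0582, edgeR adjusted p = 0.000728). These 2 held throughout. The proteasome had 9 of 31 subunits lower and 4 higher. Without E4/4 PBS female 3 or E3/3 PBS female 3, 4 were lower and 2 higher. The counts were 4 lower and 4 higher without E4/4 PBS female 2, 4 lower and 5 higher without E4/4 PBS male 1 and 5 lower and 2 higher without E3/3 PBS male 4. Psmd7, of the regulatory lid, was at 79.7 to 102 CPM (median 92.2) in E4/4 PBS mice, against 108 to 129 CPM (median 122) in E3/3 PBS mice, without overlap (log2 −0.41, SE 0.0527, edgeR adjusted p = 2.71e-05). Of 40 lysosome and autophagy genes 11 fell (7 without E4/4 PBS female 3) and 2 rose. Atp6v0a1, a subunit of the proton pump that acidifies lysosomes and synaptic vesicles, was at 414 to 525 CPM (median 439.9) in E4/4 PBS mice, against 531 to 639 CPM (median 580.1) in E3/3 PBS mice, without overlap (log2 −0.39, SE 0.0529, edgeR adjusted p = 3.3e-05). The calcium channel Mcoln1 (−0.25, adjusted p = 0.00231) and the galactosidase Glb1 (−0.23, adjusted p = 0.00294) also fell throughout, whereas cathepsin D (Ctsd) did not pass the test (0.03, adjusted p = 0.81). Of 28 genes of the NRF2 antioxidant response 5 rose and 2 fell, with 3 higher without any 1 of 7 vehicle libraries and with Prdx1 (0.30, adjusted p = 0.000896) the member that held.

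Several oligodendrocyte genes rose. Of 30 markers of myelin and mature oligodendrocytes 11 rose and 0 fell (median 0.21), and 8 held throughout. The mean log2 level of this list differed by 0.19 and did not pass (exact permutation test, adjusted p = 0.0798 over 24 measures). That adjusted p was 0.0474 to 0.131 when 1 vehicle library was left out. Qdpr, a pteridine reductase high in oligodendrocytes, was at 184 to 238 CPM (median 204) in E4/4 PBS mice, against 129 to 184 CPM (median 154) in E3/3 PBS mice (log2 0.43, SE 0.0767, edgeR adjusted p = 0.000327). The ranges overlapped. Mog (0.29, adjusted p = 0.00383) and Cnp (0.20, adjusted p = 0.0207) rose less, and Mbp did not pass the test, at 2467 to 3468 CPM in E4/4 PBS and 2437 to 3202 CPM in E3/3 PBS mice (0.10, adjusted p = 0.421). Of 18 precursor markers 4 rose (2 without E4/4 PBS female 3 or E3/3 PBS female 3 or male 2) and 1 fell, with Lhfpl3 at 17.3 to 51.2 CPM (median 35.4) in E4/4 PBS mice, against 13.9 to 27.6 CPM (median 18.98) in E3/3 PBS mice (log2 0.81, SE 0.178, edgeR adjusted p = 0.00212). Of 30 astrocyte markers 3 rose and 4 fell, with 3 higher and 0 lower with depth class as a term. Without E3/3 PBS female 1, 7 were higher and 4 lower, and without E4/4 PBS female 1, 6 and 4. Without E4/4 PBS female 2 or male 1 or E3/3 PBS female 2, 1 was lower, and without E3/3 PBS male 1, male 2 or male 4, 2 were. Aqp4, the water channel of astrocyte endfeet, rose (0.35, adjusted p = 0.00383), but its call ended after the GC and length correction (adjusted p = 0.145). Slc4a4, a bicarbonate transporter, rose throughout (0.45, adjusted p = 0.00247), and Gfap was at 112 to 189.5 CPM in E4/4 PBS and 80.1 to 228 CPM in E3/3 PBS mice and did not pass the test (0.24, adjusted p = 0.209).

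Microglial markers were called about as often as all genes tested, of which 20.4% passed. Of 22 homeostatic markers 4 rose and 1 fell. Siglech (0.28, adjusted p = 0.00609) and the receptor Tgfbr1 (0.37, adjusted p = 0.000684) held throughout, and Aif1 (0.10, adjusted p = 0.523) and Csf1r (−0.01, adjusted p = 0.94) did not pass the test. Of 22 measured markers of the disease-associated state 4 rose and 1 fell, with 2 higher without any 1 of 8 vehicle libraries. Spp1, which encodes osteopontin, was at 8.23 to 22.4 CPM (median 17.5) in E4/4 PBS mice, against 5.07 to 14.6 CPM (median 8.25) in E3/3 PBS mice, with overlap (log2 0.96, SE 0.202, edgeR adjusted p = 0.00148), and held throughout; other cells of the brain and its membranes also make it. Tyrobp (0.30, adjusted p = 0.0395), the partner of TREM2, rose with a call that ended with depth class as a term (adjusted p = 0.0571) and was kept in 6 of the 16 fits that left out 1 vehicle library. Trem2 itself did not pass the test, at 13.4 to 23.4 CPM in E4/4 PBS and 16.1 to 25.96 CPM in E3/3 PBS mice (0.05, adjusted p = 0.779). Clec7a, at the low levels of 0.382 to 1.22 CPM in E4/4 PBS and 0.102 to 0.958 CPM in E3/3 PBS mice, rose (1.06, adjusted p = 0.0409) with a call kept in 5 of those 16 fits. Of 30 interferon genes 2 rose (5 without E3/3 PBS female 1), among them Ifi27l2a (1.19, adjusted p = 0.0356), whose call was kept in 6 of those 16 fits, and of 26 complement and antigen presentation genes 1 rose. In both lists 0 genes held throughout.

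Of 25 endothelial genes 7 fell and 2 rose. Without E3/3 PBS female 1, 3 were lower and 1 higher. Also 3 were lower without E4/4 PBS female 2 or female 3 or E3/3 PBS male 2, and 4 without E4/4 PBS male 2 or male 3. Flt1, a receptor for VEGF, was at 52.03 to 68.2 CPM (median 56.01) in E4/4 PBS mice, against 69.7 to 90.4 CPM (median 75.9) in E3/3 PBS mice, without overlap (log2 −0.41, SE 0.0823, edgeR adjusted p = 0.000886). Haemoglobin genes and Alas2, the first enzyme of haem synthesis in red cells, were lower, 5 of 11 measured blood genes with 0 higher. Hba-a1 was at 0.876 to 4.82 CPM (median 1.9996) in E4/4 PBS mice, against 2.27 to 34.7 CPM (median 8.61) in E3/3 PBS mice (log2 −2.41, SE 0.488, edgeR adjusted p = 0.00123), so that the highest E4/4 PBS libraries reached into the E3/3 PBS range. The near-identical copies Hba-a1 and Hba-a2 share reads, and their separate values are uncertain. The haemoglobin share of all counts was 0.000373% to 0.00152% in E4/4 PBS and 0.000752% to 0.0107% in E3/3 PBS libraries (exact permutation test, adjusted p = 0.0317 over 24 measures, and above 0.05, at up to 0.131, without any 1 of 7 E4/4 PBS libraries), and its part in the endothelial values was not tested. Of 20 choroid plexus markers 2 rose, Aqp1 and Cldn1, and 0 held throughout, while 8 were higher without E3/3 PBS female 4. Aqp1 was at 0.521 to 2.24 CPM in E4/4 PBS females and 6.24 to 7.91 CPM in E4/4 PBS males, against 0.306 to 2.20 CPM in E3/3 PBS mice. Cldn1 was low, at 0.730 to 3.31 CPM in E4/4 PBS and 0.561 to 1.49 CPM in E3/3 PBS mice, with overlap. In signalling by Wnt, Notch and growth factors 9 of 33 genes rose and 2 fell. In the fit without E4/4 PBS female 1, 8 were higher and 5 lower. The higher ones were 5 without E3/3 PBS female 2 or female 3 and 4 without E4/4 PBS male 2 or E3/3 PBS male 4. Ctnnb1, which encodes beta-catenin, (0.26, adjusted p = 0.00109) and Lgr4, a receptor that strengthens Wnt signals, (0.45, adjusted p = 0.000394) rose throughout, and Wnt4 fell with a call that ended with depth class as a term (−0.56, adjusted p = 0.0135).

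Around Apoe on chromosome 7, 19 of 45 measured genes within 1 Mb fell and 0 rose (median −0.19), and 3 held throughout. Ppp1r37 (chromosome 7, 19530800 to 19563076), a regulator of protein phosphatase 1, was at 155 to 200.1 CPM (median 166) in E4/4 PBS mice, against 209 to 282 CPM (median 238) in E3/3 PBS mice, without overlap (log2 −0.53, SE 0.0688, edgeR adjusted p = 2.45e-05). Mypop (chromosome 7, 18991245 to 19001766) was at 24.9 to 32.3 CPM (median 26.3) in E4/4 PBS mice, against 29.9 to 46.2 CPM (median 37.1) in E3/3 PBS mice (log2 −0.42, SE 0.0775, edgeR adjusted p = 0.000394). The third was Nova2 (chromosome 7, 18925888 to 18965319). In the fits that left out 1 vehicle library, 13 to 18 of these genes were lower, with 13 lower without E3/3 PBS female 1. After the GC and length correction 2 of the 45 genes were higher and 6 lower, with a median of −0.05. The shares over all genes tested were then 6.92% higher and 6.30% lower. The number of calls in this region thus depended on that step.

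The genes with the smallest p-values and the largest changes that held throughout came from many functions. Among those with the smallest p, Rhoq, a small GTPase of membrane traffic, was at 37.9 to 45.7 CPM (median 39.6) in E4/4 PBS mice, against 21.7 to 31.4 CPM (median 28.1) in E3/3 PBS mice (log2 0.58, SE 0.0832, edgeR adjusted p = 4.67e-05). Xpo1, the nuclear export receptor, was at 80.2 to 103 CPM (median 92.7) in E4/4 PBS mice, against 51.6 to 77.98 CPM (median 64.3) in E3/3 PBS mice (log2 0.52, SE 0.0682, edgeR adjusted p = 2.94e-05). Marcks, a protein kinase C substrate that binds actin and membrane, was at 136 to 191 CPM (median 169) in E4/4 PBS mice, against 71.2 to 134 CPM (median 116) in E3/3 PBS mice (log2 0.64, SE 0.0896, edgeR adjusted p = 3.98e-05). The E4/4 PBS values of these 3 genes lay above all E3/3 PBS values. The polycomb gene Bmi1 (0.52, adjusted p = 3.98e-05), the vesicle protein Synpr (0.72, adjusted p = 3.98e-05), the DNA repair protease Sprtn (0.37, adjusted p = 4.67e-05) and the bicarbonate transporter Slc4a7 (0.67, adjusted p = 4.67e-05) rose too. Atp9a, of the phospholipid flippase family, was at 292 to 409 CPM (median 332) in E4/4 PBS mice, against 420.4 to 497 CPM (median 443) in E3/3 PBS mice, without overlap (log2 −0.42, SE 0.0553, edgeR adjusted p = 3.1e-05). Cdk5r2, an activator of the neuronal kinase Cdk5, was at 133 to 198 CPM (median 162) in E4/4 PBS mice, against 194 to 286 CPM (median 258) in E3/3 PBS mice, with ranges that overlapped (log2 −0.63, SE 0.0835, edgeR adjusted p = 3.1e-05). The kinases Map3k10 (−0.51, adjusted p = 1.72e-05) and Csnk1g2 (−0.39, adjusted p = 3.43e-05) fell without overlap, as did Prcc (−0.42, adjusted p = 1.72e-05). The largest changes that held included Grem1, an inhibitor of BMP signals, at 2.45 to 8.98 CPM (median 3.79) in E4/4 PBS mice, against 1.35 to 2.56 CPM (median 2.01) in E3/3 PBS mice (log2 1.204, SE 0.214, edgeR adjusted p = 0.000305), the homeobox gene Meis1 (0.97, adjusted p = 0.00576), the phosphodiesterase Pde3a (1.03, adjusted p = 0.00103) and the protease Adamts6 (0.92, adjusted p = 0.00734) on the higher side. On the lower side they included Gipc3 (−1.28, adjusted p = 0.000689), the transcription factor Nfix (−0.90, adjusted p = 0.00278) and Rtn4rl2, of the Nogo receptor family, (−0.92, adjusted p = 0.000353).

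**Figure D4:**
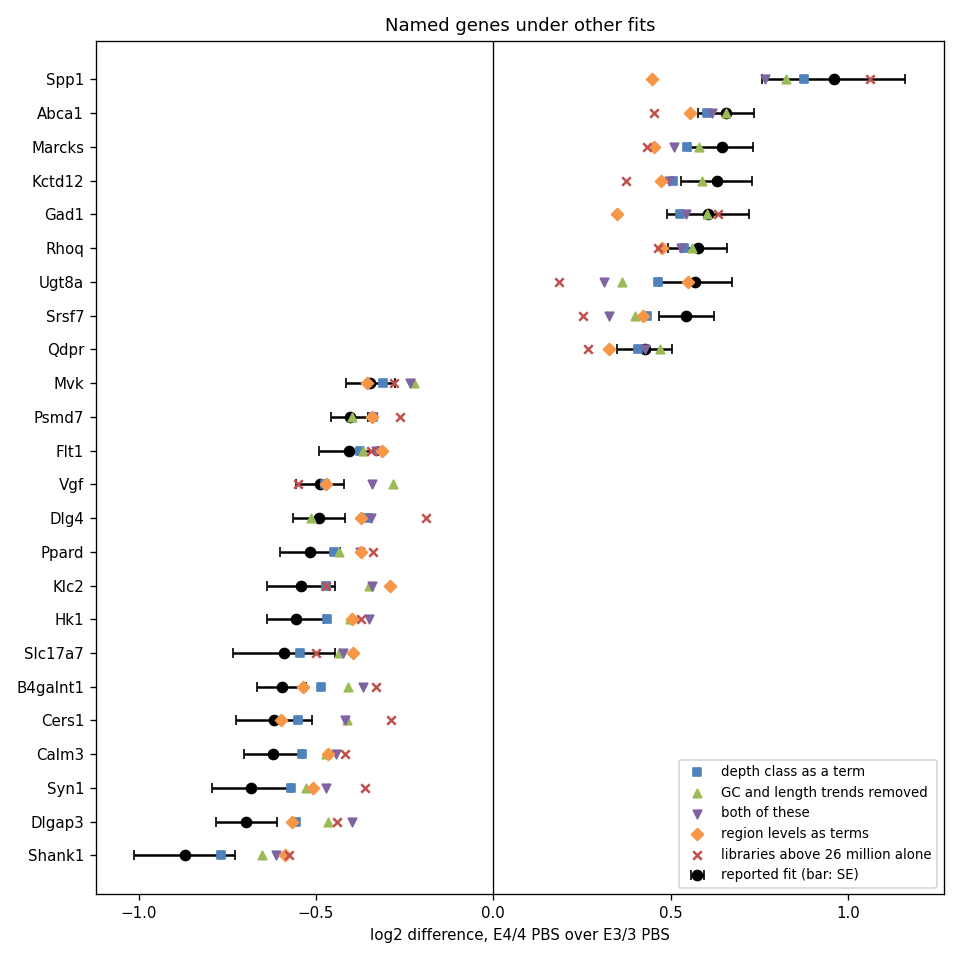
Log2 difference between E4/4 PBS and E3/3 PBS mice for 24 named genes under 5 fits (symbols) and in the reported fit with its standard error (bars), highest at the top. The symbols stay on the side of 0 of the reported value, and most lie closer to 0 with depth class and GC corrections or in the libraries above 26 M counts alone.

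The same genotype contrast could be set beside 16 other mice, the E4/4 D4F and E3/3 D4F groups, which share no library with the vehicle groups but have the same library number ranges by genotype. Both contrasts came from the same fit of all 32 libraries. There 1 gene was called (0.00493%) with edgeR, with 2801 at an unadjusted p below 0.05 and 192 called by DESeq2. Of the 4137 genes called in vehicle mice, 3689 (89.2%) had the same sign in D4F mice, against 70.0% over all genes tested, and of the 960 that held throughout, 913 (95.1%) did. At an unadjusted p below 0.05 in D4F mice 1253 of the 4137 had the same sign and 4 the opposite. Abca1 was at 28.8 to 36.1 CPM in E4/4 D4F mice and 21.9 to 28.6 CPM in E3/3 D4F mice, a log2 difference of 0.33 (edgeR adjusted p = 0.0796) against 0.66 in vehicle mice. The myelin list had a median of 0.01 in D4F mice and the postsynaptic list −0.11, whereas Meis1 differed by 0.96 and Hba-a1 by −2.43, close to their vehicle values. The difference between the vehicle and the D4F contrast passed the adjusted threshold for 0 genes with edgeR, with 2113 at an unadjusted p below 0.05, and for 303 without E3/3 PBS female 4. The smallest p-values of that test were those of Ctnnal1, Zfp160, Cfl2, Pno1 and Scara3.

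**Figure D5:**
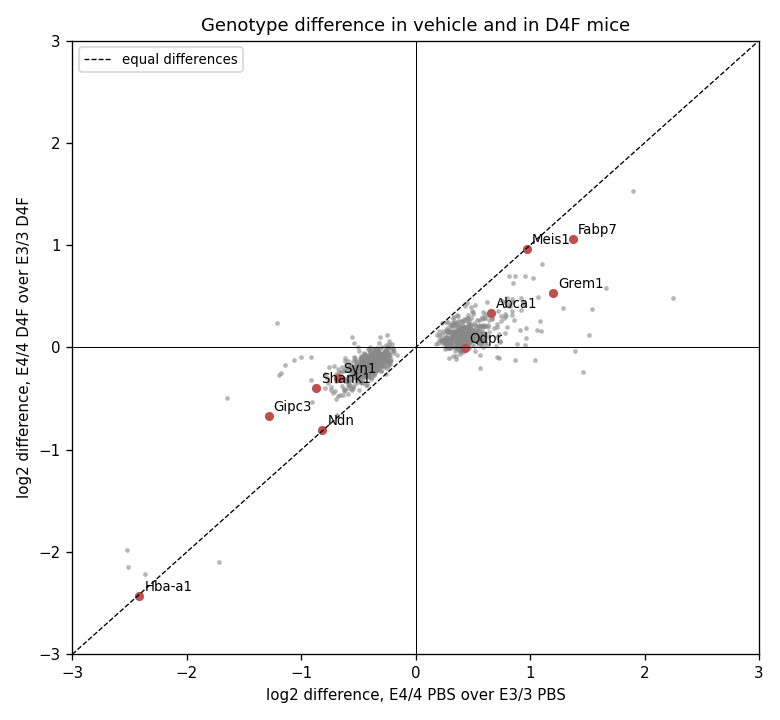
Genotype difference in vehicle mice (horizontal) against that in D4F mice (vertical), both as E4/4 over E3/3 on the log2 scale, for the 960 genes that held throughout in vehicle mice. These genes were selected on the horizontal axis; 913 of them have the same sign on both axes, most with a smaller difference in D4F mice.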

How the data were processed

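Per the submitters' processing notes, reads were trimmed with Trimmomatic, aligned with HISAT2 to GRCm38 and counted with featureCounts. Their versions, the annotation and the strand setting are missing from the sources used here. The authors deposited raw counts per gene name for 32 libraries (57010 rows, 150 repeated names), and columns were matched to samples by the library number in the labels. Genes were kept by filterByExpr (minimum count 10, minimum total 15), which left 20298. The counts of all 32 libraries were scaled by TMM and fitted with edgeR 4.0.16 in R 4.3.3 (robust quasi-likelihood, 1 coefficient for each of 8 groups). The D4F libraries thus entered the filter, the scaling, the shared estimate of the spread and, where used, the depth class term. The reported contrast averages the female and male differences, p-values are two-sided and adjusted over all genes by the method of Benjamini and Hochberg, and they measure the spread between mice. Alternatives used DESeq2 1.42.0, limma 3.58.1 (voom), other filters, depth class, GC and length trends, a replicate block, the vehicle libraries alone and leaving out each library. CPM values are counts scaled to 1 M on TMM-scaled library sizes. The fit was tested on simulated counts that held no differences in GC slope or tissue make-up between the groups. That test therefore cannot show how such differences act on the calls.

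Coordinates, GC content and exon length came from the GENCODE annotation of GRCm38 by symbol, with a value for 19206 tested genes (94.6%). Genes with near-identical copies or overlapping partners share reads, and their separate values are uncertain. Replicate libraries of a group differed by far more than counting error (chi-square per degree of freedom 10.4 to 62.3 over 24 pairs), so none was counted as a repeat of another. Composition measures were compared by exact two-sided permutation over 12870 regroupings and adjusted over 24 measures. The named genes were those with the smallest p or the largest change that held throughout, up to 4 called members of each list, some abundant members that were not called, and fixed genes. Not all are printed, and a few genes are not reported here. The comparison, the lists and the naming rule were chosen with earlier results of these data known. Set tests were not run, and lists are given by counts and medians.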

Additional observations from a re-analysis of the deposited data

Results flagged for a closer look

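In groups of 8 libraries, 32 of 332 tested sets of values (9.64%) held a library far from the other 7, where chance gives about 5%. Most of them were high values in 1 library, E4/4 PBS female 1. It had the highest value of its group for Sorl1 at 407 CPM (others at most 247), Map1a at 1393 CPM, Grin1 at 549.9 CPM, App at 1705 CPM, Calm3 at 1324 CPM, Chgb at 576 CPM, Hk1 at 404 CPM, Hsp90ab1 at 1435 CPM, Klc2 at 287 CPM, Atp9a at 409 CPM and Atp6v0a1 at 525 CPM. The same held for Nfix at 157 CPM, Emx1 at 14.3 CPM, Gipc3 at 2.76 CPM, Rtn4rl2 at 19.8 CPM and Chrm1 at 188.2 CPM, and for St3gal3 at 69.3 CPM, St3gal2 at 114 CPM, Srebf2 at 245 CPM, Lrp3 at 87.5 CPM and Ppp1r37 at 200.1 CPM. It had the lowest value of its group for Rbm39, at 225 CPM. This library was also the E4/4 PBS library with the fewest counts, and the part of depth in these values was not tested.

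In E3/3 PBS female 1 the mean log2 level of the excitatory neuron list was 6.27, against 6.67 to 6.91 in the other E3/3 PBS libraries. The same library was lowest for App, at 1199 CPM, and highest for Apod at 362 CPM, Gfap at 228 CPM, Trem2 at 25.96 CPM, Spp1 at 14.6 CPM and Avp at 0.479 CPM. E4/4 PBS male 1 was highest of its group for Kctd12, at 104 CPM, and Slc4a4, at 190.1 CPM, and E3/3 PBS female 2 for Shank3, at 262 CPM.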

How the results depend on the processing

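The 4137 calls became 1286 with depth class as a term, 2682 after GC and length correction, 477 with both, 42 in the libraries above 26 M counts alone, 2162 with region levels as terms and 2017 with the replicate block and the GC and length correction. They became 0 with edgeR in the libraries under 26 M counts alone, which hold 1 E4/4 PBS library (2414 genes at an unadjusted p below 0.05), and 0 in the vehicle libraries alone with depth class as a term (1894). The terms for region levels and the last pair of fits were added after seeing the data. Leaving out 1 library gave 3125 (without E3/3 PBS female 3) to 4871 (without E4/4 PBS female 1). The other fits gave 3159 to 4619, and the replicate block alone 3646. Replicate numbers were not taken as pairs, since the correlation of deviations was −0.593 to 0.37 over 8 pairs, over 0.1 in 2 of them, and 1 of 8 libraries correlated best with its own number. The sex difference had 1 call in the vehicle libraries alone and 0 to 39 without 1 vehicle library, and the vehicle minus D4F difference 0 to 303. The genotype contrast in D4F mice had 192 calls with DESeq2, 27 with depth class, 15 with sex as an additive term, 2 each without the count filter, with a minimum count of 50, after GC and length correction, with depth class added to that and with the replicate block, 0 in each of the remaining fits and 0 to 15 without 1 D4F library. Leaving out 1 library moved the difference in total counts between 8.50 and 12.1 M, the GC slope between −0.172 and −0.130, the haemoglobin share between −0.00397 and −0.00254 percentage points, the olfactory bulb level between 0.775 and 1.23, the excitatory neuron level between −0.386 and −0.271 and the myelin level between 0.167 and 0.216. Signs turned in the libraries under 26 M counts alone for Aqp1 (−0.097), Aqp4 (−0.035), Cldn1 (−0.30), Emx1 (0.026), Fabp7 (−0.17), Hdlbp (0.045), Lhfpl3 (−0.014), Lrp1 (0.053), St3gal3 (0.079), Trh (−0.90) and Tyrobp (−0.25). Kif5b (−0.0067) and Ube3a (−0.024) turned in the libraries above 26 M alone, and Nr1h2 after GC and length correction (0.00082), with depth class added (0.011) and with the replicate block added (0.00076). The cause of these changes was not tested.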

Other observations

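In further gene groups the share called was near the background of 20.4% or below it when every library was used. Of 42 cytosolic ribosomal proteins 7 were higher (12 without E3/3 PBS female 1, 11 without E4/4 PBS female 1 and 4 without E3/3 PBS female 3) and 2 lower (5 without E3/3 PBS female 4) in E4/4 PBS mice, with Rplp1 (298 to 452 CPM (median 399.5) in E4/4 PBS mice, against 233 to 404 CPM (median 279) in E3/3 PBS mice) the member that held throughout (0.40, adjusted p = 0.0165). Its processed pseudogenes make that value uncertain. Of 26 ubiquitin ligases and deubiquitinases 2 were higher, among them Ube3a (0.50, adjusted p = 0.00604), a ligase silenced on the paternal allele in neurons, and 4 lower, and 0 held. Of 31 measured genes of serotonin, dopamine and acetylcholine signalling 3 were lower and 0 higher (5 and 3 without E4/4 PBS female 1), with the muscarinic receptor Chrm1 at 139 to 188 CPM (median 148) in E4/4 PBS mice, against 182 to 247 CPM (median 206) in E3/3 PBS mice (log2 −0.45, SE 0.0785, edgeR adjusted p = 0.000246) throughout. Neurogenesis and cell division had 3 of 20 higher, among them Dcx (0.57, adjusted p = 0.0179), and 1 lower. Thalamus and cerebellum had 1 of 14 higher (Slc17a6, 0.61), mural cells 1 of 18 lower (Notch3, −0.42), fibroblasts of the brain membranes 1 of 20 higher (Ogn, 1.03) and ependyma 1 of 15 higher, and 0 of these 4 lists had a member that held. Without E3/3 PBS female 1, whose mean log2 level of the fibroblast list was 5.11 against 3.15 to 4.40 in the other 15 vehicle libraries, 8 of the 20 fibroblast genes were higher and 0 lower. Of 15 genes of mitochondrial DNA 3 were higher (6 without E4/4 PBS female 1 and 5 without E4/4 PBS male 1), with mt-Rnr2 (0.48, adjusted p = 0.00253) not called after the GC and length correction (adjusted p = 0.26).

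Ndn and Dynlt1b were chosen after their values were seen. Ndn, a paternally expressed imprinted gene on chromosome 7, was at 81.2 to 129 CPM (median 98.6) in E4/4 PBS mice, against 141 to 238 CPM (median 170.4) in E3/3 PBS mice, without overlap (log2 −0.81, SE 0.177, edgeR adjusted p = 0.00207), and held throughout. Its difference in D4F mice was −0.80 (edgeR adjusted p = 0.0705), at 86.9 to 126 CPM in E4/4 D4F and 91.4 to 340.3 CPM in E3/3 D4F mice. Dynlt1b, a dynein light chain gene with near-identical copies and therefore an uncertain value, was the gene called in D4F mice (0.90, edgeR adjusted p = 0.0489), and it was also higher in vehicle mice, at 2.497 to 5.13 CPM (median 3.36) in E4/4 PBS mice, against 1.76 to 3.14 CPM (median 2.396) in E3/3 PBS mice (0.56, adjusted p = 0.0109).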
